A study of Mus musculus with 12 samples.

Results

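The genes described here are the transcription factor NRF2, encoded by Nfe2l2, its inhibitor gene Keap1, and 7 genes for antioxidant and glutathione enzymes: Nqo1, Hmox1, Gclc, Gclm, Gsr, Txnrd1 and Srxn1. They were picked by symbol and not by value, though earlier results of these data were known when they were chosen. All 9 were found among the 52535 genes of the count tables. The measurement was RNA sequencing of E14, a mouse embryonic stem cell line, with 2 libraries from each of 3 groups. The groups were clone 1 (KO1) and clone 2 (KO2), both with the genotype Bcat1-KO, and the wild type (WT) line. Every group was grown in serum with LIF, the kinase inhibitors known as 2i, non-essential amino acids, L-glutamine and β-mercaptoethanol, a reducing agent, per the labels' protocols. Each knockout group rests on a single clone, and how the knockout was made is not given in the sources used here.

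NRF2 is a transcription factor that mammalian cells hold at a low level because KEAP1 binds it and hands it to a CUL3 ubiquitin ligase for degradation. Oxidants and electrophiles modify cysteines of KEAP1, NRF2 then accumulates, pairs with a small MAF protein and binds antioxidant response elements near genes for quinone reduction, heme breakdown, glutathione synthesis and the thioredoxin system. Because this switch works on the protein, the RNA level of Nfe2l2 or Keap1 does not report NRF2 activity. Bcat1 encodes the cytosolic branched-chain aminotransferase, which forms glutamate, and glutamate is a building block of glutathione.

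Promoter sequences were searched for the core of the antioxidant response element, since it is the element that NRF2 binds. RefSeq promoters on GRCm38.p6, each with 250 bases before and 50 bases after a start site, were matched to 6 of the 9 genes: Nfe2l2, Keap1, Nqo1, Gclm, Srxn1 and Txnrd1, the last with 3 start sites. Gclc, Hmox1 and Gsr had no entry. The letters searched on both strands were TGACNNNGC and TGAGNNNGC, and 27.8% of 32851 promoters of this length held at least one of them. TGAGNNNGC can overlap TGACTCA, the AP-1 core, which 5.2% of promoters held. Matches were found in the promoters of Srxn1, Gclm and Nfe2l2 and at 1 of the 3 Txnrd1 start sites. The matched stretches below are shown 5′ to 3′ along the gene's own strand, with 10 bases on each side and the matched letters in capitals. A match read on the opposite strand therefore ends in TCA.
Srxn1, bases -45 to -37 from the start site: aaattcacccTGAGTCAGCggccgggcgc
Srxn1, bases -158 to -150: tctactgagaGCCGACTCAtcctctctgg
Srxn1, bases 28 to 36: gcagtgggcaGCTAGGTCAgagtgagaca
Gclm, bases -134 to -126: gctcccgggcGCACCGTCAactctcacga
Nfe2l2, bases -240 to -232: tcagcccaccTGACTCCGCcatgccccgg
Txnrd1, bases -92 to -84, in the promoter at chr10:82858956-82859255: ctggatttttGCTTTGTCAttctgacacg
The match of Srxn1 at bases -45 to -37 overlaps an AP-1 core. A match is a description of letters and not a site.

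Neither Nqo1, which differed most among the 9 genes, nor Keap1 had a match in its window. The Nqo1 promoter, chr8:107403156-107403455 on the minus strand, is shown whole for that reason, along the gene's own strand and in lower case throughout, as no letters matched. That these letters are not in this window says nothing about elements further away.
Nqo1 promoter: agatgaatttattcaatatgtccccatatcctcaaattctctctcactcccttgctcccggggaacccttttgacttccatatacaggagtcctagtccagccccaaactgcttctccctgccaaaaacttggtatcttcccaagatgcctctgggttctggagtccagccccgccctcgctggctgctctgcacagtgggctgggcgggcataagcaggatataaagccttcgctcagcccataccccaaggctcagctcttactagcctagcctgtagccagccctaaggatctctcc

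Gene counts ranged from 11976149 to 13923262 per library, and mitochondrial genes took 1.95% to 2.31% of them. A chi-square test of the 2 libraries of a group gave 8.79 per gene in KO1, 3.27 in KO2 and 3.57 in WT, more than counting noise alone would give, and KO1 had the widest spread. Whether the 2 libraries of a group are separate cultures is not stated in the labels, so the p-values cover a spread between libraries that may be technical only. Bcat1 RNA was at 617 and 662 CPM (counts scaled to library size with TMM factors) in KO1, 583 and 579 CPM in KO2 and 602 and 614 CPM in WT, so the RNA level does not check the knockout. Summed CPM of 8 stem cell markers was 5777 to 5901 in KO1, 6203 to 6204 in KO2 and 6389.7 to 6577 in WT. Summed CPM of 8 fibroblast markers was 32.1 to 33.5 in KO1, 20.7 to 21.0 in KO2 and 23.7 to 23.9 in WT, with Postn, Dcn and Lum at 0 counts in every library. In KO2, 1 of the 4 tested fibroblast markers had a log2 fold change above 0. Pdgfrb was at 4.44 CPM per kilobase of merged exons in KO1, 3.18 in KO2 and 3.63 in WT. Col1a2, at a low level, was at 0.117 in KO1, 0.095 in KO2 and 0.0030 in WT. The sums of trophoblast markers were 62.2 to 79.5 CPM in KO1, 56.0 to 59.2 in KO2 and 81.5 to 92.0 in WT, those of primitive endoderm markers 7.98 to 8.48, 4.73 to 7.04 and 2.47 to 4.43, and those of neural markers 91.3 to 94.1, 66.7 to 75.6 and 82.6 to 94.4, in the same order of groups. The trophoblast sum joins genes that went opposite ways in KO1. In CPM per kilobase of merged exons, Cdx2 was at 0.83 in KO1, 2.17 in KO2 and 11.3 in WT. Eomes was at 4.96 in KO1, 2.75 in KO2 and 2.62 in WT. The part of these differences in the results was not tested, and in bulk RNA fewer cells of a type and less RNA per cell cannot be told apart.

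For the RNA of the regulators themselves, no difference from WT passed the test in either clone. Nfe2l2 (chromosome 2, 75675513 to 75704641, minus strand, GRCm38) was at 114 and 111 CPM in KO1, 127 and 126 CPM in KO2 and 126 and 124 CPM in WT. KO1 lay below both other groups, and KO2 was just above WT without overlap. The log2 fold change was -0.15 ± 0.08 (SE) in KO1 and 0.02 ± 0.08 in KO2, neither past the test (edgeR quasi-likelihood, adjusted p of 0.196 and 0.923). In percent, the 95% interval ran from -20.1% to 1.31% in KO1 and from -10.2% to 13.8% in KO2.

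Keap1 (chromosome 9, 21229730 to 21239361, minus strand) was at 33.9 and 46.6 CPM in KO1, 45.0 and 45.3 CPM in KO2 and 37.4 and 39.7 CPM in WT. The KO1 libraries fell on either side of WT, while both KO2 libraries were above it. The log2 fold change was 0.06 ± 0.13 in KO1 (adjusted p 0.775) and 0.23 ± 0.13 in KO2 (adjusted p 0.262). Without the second KO1 library the KO1 value was -0.19 and the difference between KO2 and KO1 passed the test at 0.41 (adjusted p 0.0111), and without the first KO1 library that difference was -0.04. The share of reads that HTSeq left as ambiguous was 6.96% in the first and 9.10% in the second KO1 library, at the ends of the range of all 6, and its part in the split was not tested. Exons of Keap1 share 510 bases, 10.9% of their length, with the antisense gene Gm16754, and reads of the pair cannot be told apart if strand was not used in counting. Gm16754, named after its values were seen, was at 4.60 and 3.07 CPM in KO1, 3.46 and 3.24 CPM in KO2 and 1.77 and 1.55 CPM in WT.

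Nqo1 showed the largest difference among the 9 genes. It encodes the NAD(P)H quinone dehydrogenase that reduces quinones by a pair of electrons at once, and it is a commonly read target of NRF2. Nqo1 (chromosome 8, 107388225 to 107403206, minus strand) was counted 291 and 253 times in KO1, 318 and 351 times in KO2 and 190 and 225 times in WT. This came to 23.1 and 19.4 CPM in KO1, 26.9 and 27.8 CPM in KO2 and 14.7 and 16.6 CPM in WT. Every knockout library stood above both WT libraries, and both KO2 libraries stood above both KO1 libraries. Nqo1 rose by 74.5% in KO2, with a 95% interval of 42.3% to 114% and a log2 fold change of 0.80 ± 0.14 (adjusted p 6.4e-04). In KO1 it rose by 35.7%, with an interval of 10.3% to 66.9% and a log2 fold change of 0.44 ± 0.14 (adjusted p 0.0339).

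The rise of Nqo1 in KO2 passed the test in all 11 alternatives, with adjusted p between 4.35e-08 and 0.0247. In KO1 the log2 fold change of Nqo1 was 0.31 to 0.56 over the 11 alternatives, and the call was kept in 4 of 11. It was lost with DESeq2 (adjusted p 0.0906), in a fit of only the 4 libraries compared (0.0630), and without the first WT (0.238), second WT (0.0791), first KO1 (0.178), first KO2 (0.0600) or second KO2 library (0.0530). With both clones taken as a single genotype, Nqo1 was 55.1% higher in knockout libraries (interval 19.1% to 102%, log2 fold change 0.63 ± 0.17), and the adjusted p of 0.0581 missed 0.05. That genotype difference passed with DESeq2 (0.0204), with no filter on low counts (0.0105) and without the second KO1 library (0.0244). It also passed as the mean of the clone contrasts (0.00167). That adjusted p rests on the spread between libraries within a group, and differences between clones do not enter it. KO2 was 28.6% above KO1 (interval 5.41% to 56.9%), which missed the threshold at an adjusted p of 0.0873 and passed it without the first KO1 library (0.0178) and with the replicate number as a block (0.0442).

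Hmox1, the inducible heme oxygenase and another well-known NRF2 target, did not follow Nqo1. Hmox1 (chromosome 8, 75093621 to 75100589, plus strand) was at 77.1 and 78.2 CPM in KO1, 77.9 and 88.02 CPM in KO2 and 85.3 and 87.2 CPM in WT. The KO1 libraries were below both WT libraries, and the KO2 libraries lay on either side of them. The log2 fold change was -0.15 ± 0.09 in KO1 (adjusted p 0.268) and -0.06 ± 0.09 in KO2 (adjusted p 0.738). The intervals, -21.5% to 3.18% in KO1 and -16.1% to 10.3% in KO2, end below the rises of Nqo1 in either clone. Without the first KO2 library the KO2 value was 0.02.

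**Figure D1:**
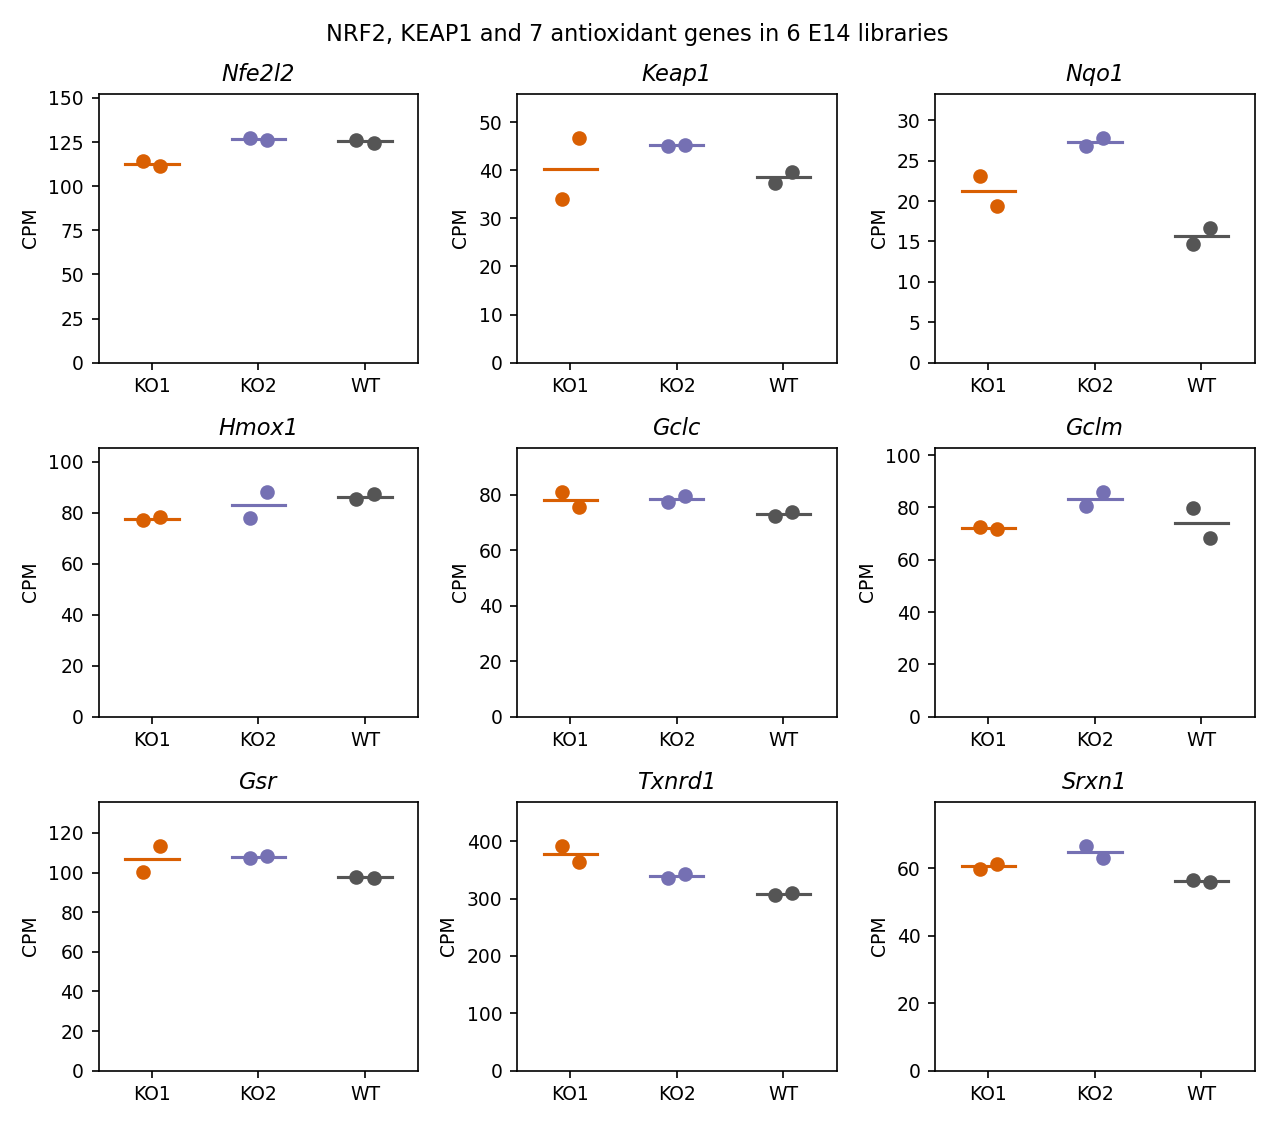
Level of each of the 9 genes in every library, in TMM-scaled CPM, with KO1 and KO2 to the left of WT and a line at each group's mean. For Nqo1 the 4 knockout libraries sit between 19.4 and 27.8 CPM, above the WT libraries at 14.7 and 16.6 CPM, while the Keap1 libraries of KO1 lie apart at 33.9 and 46.6 CPM.

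For the subunits of glutamate-cysteine ligase, the enzyme of the rate-limiting step of glutathione synthesis, no difference from WT passed the test in either clone. Gclc, the catalytic subunit (chromosome 9, 77754535 to 77794485, plus strand), was at 80.9 and 75.5 CPM in KO1, 77.4 and 79.7 CPM in KO2 and 72.3 and 73.9 CPM in WT. All 4 knockout libraries were above WT, by a log2 fold change of 0.10 ± 0.09 in KO1 (adjusted p 0.494) and 0.10 ± 0.09 in KO2 (adjusted p 0.488). The upper ends of the 95% intervals were 22.3% in KO1 and 22.9% in KO2.

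Gclm, the modifier subunit (chromosome 3, 122245557 to 122270732, plus strand), was at 72.6 and 71.6 CPM in KO1, 80.5 and 85.7 CPM in KO2 and 79.8 and 68.2 CPM in WT. The WT libraries spanned the KO1 values and lay below both KO2 libraries. The log2 fold change was -0.04 ± 0.10 in KO1 (adjusted p 0.823) and 0.17 ± 0.10 in KO2 (adjusted p 0.269), and the KO1 value was 0.07 without the first WT library. Gclm exons share 296 bases with Gm17494 on the other strand and 244 bases with the pseudogene Gm6061 on the same strand. Reads there may be left as ambiguous, for Gm17494 only if strand was not used in counting.

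Txnrd1, the cytosolic thioredoxin reductase, which contains selenocysteine and uses NADPH to reduce thioredoxin, was the second of the 9 to pass a test. Txnrd1 (chromosome 10, 82833951 to 82897712, plus strand) was at 391 and 364 CPM in KO1, 336 and 342 CPM in KO2 and 307 and 309 CPM in WT. All 4 knockout libraries were above WT, and here KO1 stood above KO2, the reverse of the order for Nqo1. Txnrd1 rose by 22.7% in KO1 (interval 9.72% to 37.1%, log2 fold change 0.29 ± 0.08, adjusted p 0.0103). In KO2 the value was 10.1% (interval -1.49% to 23.2%, log2 fold change 0.14 ± 0.08, adjusted p 0.231).

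The KO1 call for Txnrd1 was lost without the first (adjusted p 0.0979) or the second WT library (0.0841) and kept in the other 9 alternatives. The difference between KO2 and KO1 was -0.16 ± 0.08 on the log2 scale (adjusted p 0.197), and it passed the test at -0.20 without the second KO1 library (0.0458). As a single genotype, the knockout libraries had a log2 fold change of 0.22 ± 0.09 (adjusted p 0.163). It passed as the mean of the clone contrasts (0.0275), where differences between clones do not enter the spread.

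Gsr, the glutathione reductase that regenerates reduced glutathione (chromosome 8, 33652523 to 33698163, plus strand), was at 100.2 and 113 CPM in KO1, 107 and 109 CPM in KO2 and 97.7 and 97.4 CPM in WT. The knockout libraries were all above WT, with log2 fold changes of 0.13 ± 0.09 in KO1 (adjusted p 0.323) and 0.15 ± 0.09 in KO2 (adjusted p 0.291). Srxn1, sulfiredoxin, which repairs over-oxidised peroxiredoxins (chromosome 2, 152105516 to 152111376, plus strand), was at 59.9 and 61.4 CPM in KO1, 66.5 and 63.2 CPM in KO2 and 56.6 and 55.9 CPM in WT. Srxn1, whose promoter holds 3 of the 6 stretches printed above, was higher in every knockout library too, with log2 fold changes of 0.11 ± 0.10 in KO1 (adjusted p 0.461) and 0.20 ± 0.10 in KO2 (adjusted p 0.159). Neither gene passed the test in either clone.

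**Figure D2:**
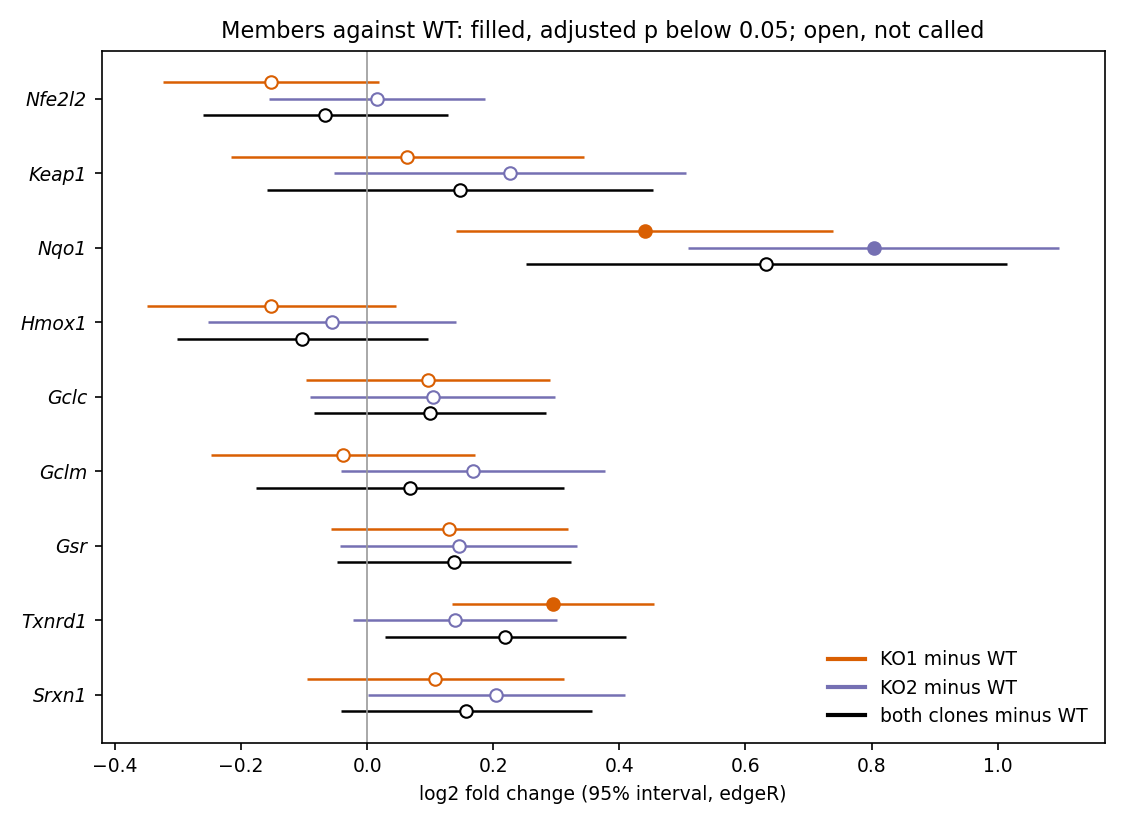
Log2 fold change of each of the 9 genes, with 95% intervals, for KO1 minus WT, KO2 minus WT and both clones minus WT, filled where the adjusted p was below 0.05 and open where it was not. Nqo1 stands apart at 0.44 in KO1 and 0.80 in KO2, Txnrd1 follows at 0.29 in KO1, and the intervals of the other 7 genes include 0 in KO1.

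Counted over the 9 genes, 2 passed the test in KO1, Nqo1 and Txnrd1, both higher, beside 21.9% of the 14946 genes tested in that comparison and 12.4% called higher. In KO2, 1 of 9 passed, Nqo1, beside 17.9% of all genes tested and 10.1% called higher. With KO1 and KO2 as a single genotype 0 of 9 passed with edgeR, beside 6.36% of all genes tested. In that comparison 2 of 9, Nqo1 and Txnrd1, had an unadjusted p below 0.05, and DESeq2 called 1. Between KO2 and KO1, 0 of 9 passed with edgeR or with DESeq2, beside 14.3% of all genes tested, and 1, Nqo1, had an unadjusted p below 0.05. The share of the 9 that passed was therefore near that of all genes in KO1 and no larger in the other comparisons.

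Most of the 9 genes had the libraries of a clone on 1 side of WT. In KO2, 8 of 9 genes had both libraries above both WT libraries, beside 31.3% of all genes tested, and the exception was Hmox1. In KO1, 5 of 9 had both libraries above WT, beside 30.6% of all genes, and 2, Nfe2l2 and Hmox1, had both below, beside 28.8%. In 5 of 9, Nqo1, Gclc, Gsr, Txnrd1 and Srxn1, all 4 knockout libraries were above WT, beside 18.3% of all genes. The median log2 fold change of the 9 was 0.10 in KO1 and 0.15 in KO2, beside -0.0010 in KO1 and -0.0017 in KO2 over all genes. Both contrasts share the WT libraries, so a WT value that is low for a gene enters both.

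Levels per kilobase of merged exons give an approximate order of the 9 genes. Merged exons join those of all annotated transcripts, and the length of the transcripts expressed was not measured. Keap1 and Gclm also share exon bases with other genes, as given above. In WT the mean CPM per kilobase (SD, n = 2) ran from Hmox1 at 49.3 ± 0.769 and Txnrd1 at 43.4 ± 0.214 through Gsr at 35.4 ± 0.0635, Nfe2l2 at 33.0 ± 0.328, Srxn1 at 20.0 ± 0.179 and Gclc at 19.4 ± 0.309. Gclm at 11.8 ± 1.295, Nqo1 at 10.1 ± 0.893 and Keap1 at 8.22 ± 0.350 were lowest, and Gclm and Nqo1 did not differ beyond their spread. Txnrd1 was highest in KO1 at 53.3 ± 2.67 CPM per kilobase, above Hmox1 at 44.4 ± 0.470. In KO2 the pair, at 47.8 ± 0.644 for Txnrd1 and 47.4 ± 4.07 for Hmox1, could not be ordered. Nqo1 reached 17.6 ± 0.412 CPM per kilobase in KO2, above Gclm at 13.2 ± 0.590, and 13.7 ± 1.67 in KO1, where Gclm was at 11.5 ± 0.111.

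Among 10634 genes of mean CPM of 5 or more, those whose log2 CPM over the 6 libraries lay nearest to Nqo1 after centring were St8sia1, at a root mean square difference of 0.0341, Camkk2 at 0.0580 and Gm6284 at 0.0661. Those nearest to Txnrd1 were Nelfa at 0.0221, Hmgxb4 at 0.0251 and Ammecr1l at 0.0293.

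Around the 9 genes, 128 further genes of the NRF2 system, glutathione and thiol metabolism were listed by role, and 112 of them were tested. These lists too were drawn up with earlier results of these data known. In KO1, 13 rose and 19 fell, together 28.6% of those tested beside 21.9% of all genes. In KO2, 23 rose and 14 fell, together 33.0% beside 17.9% of all genes. As a single genotype, 6 rose and 7 fell, 11.6% beside 6.36% of all genes, and those 13 calls were all lost when the first or the second WT library was left out. Without the first WT library their adjusted p ranged from 0.0802 for Gss to 0.279 for Blvrb, and without the second from 0.0770 for Aldh3a1 to 0.302 for Blvrb. Genes named in the following paragraphs for a clone kept that call in all 11 alternatives unless a loss is given.

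Of 13 tested partners of NRF2 and KEAP1, 5 were higher in KO2 than in KO1, 0 lower and 8 not called. These were 38.5% of the 13, beside 14.3% of all genes called in either direction, with 989 of 14946 higher. Against WT, 3 of 13 fell and 0 rose in KO1, 23.1% beside 21.9% of all genes in either direction, with 1424 of 14946 lower. In KO2, 4 rose and 0 fell, 30.8% beside 17.9% of all genes in either direction and 10.1% higher. Of these 7 calls against WT, that of Bach2 in KO1 held in all 11 alternatives. In KO2, Gsk3b and Bach1 lost theirs without any single WT or KO2 library (adjusted p 0.0853 to 0.169 for Gsk3b and 0.0953 to 0.169 for Bach1), and Nfe2l1 without the first WT (0.155), first KO2 (0.108) or second KO2 library (0.0729). Sqstm1, the autophagy receptor p62 that binds KEAP1 and is itself a known NRF2 target, was at 190 and 192 CPM in KO1, 276 and 284 CPM in KO2 and 229 and 232 CPM in WT. The 3 groups did not overlap, and KO2 was above KO1 by a log2 fold change of 0.55 ± 0.08 (adjusted p 1.17e-04). Against WT, Sqstm1 fell in KO1 (-0.28 ± 0.08, adjusted p 0.0158) and rose in KO2 (0.28 ± 0.08, adjusted p 0.0168). The KO1 call was lost without the first (0.0859) or second WT library (0.108), and the KO2 call without the first (0.139) or second WT (0.102) or the first (0.132) or second KO2 library (0.179). Mafg, a small MAF partner of NRF2, was higher in KO2 than in KO1 as well (0.48 ± 0.08, adjusted p 9.6e-04). Its call against WT in KO1 (-0.26 ± 0.08, adjusted p 0.0373) was kept in 4 of 11 alternatives. It was lost with DESeq2 (0.0548), in a fit of only the 4 libraries compared (0.0800), and without the first WT (0.0956), second WT (0.243), first KO1 (0.0991), first KO2 (0.0784) or second KO2 library (0.0791).

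Bach2, a BACH family repressor that pairs with small MAF proteins, was at 12.2 and 10.7 CPM in KO1, 20.3 and 20.1 CPM in KO2 and 19.9 and 19.6 CPM in WT. KO1 stood apart from both other groups, with a log2 fold change against WT of -0.79 ± 0.15 (adjusted p 9.3e-04). In KO2 the value was 0.03 ± 0.14 (adjusted p 0.917).

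In the supply, turnover and peroxidase list of glutathione, 3 genes rose and 6 fell of 23 in KO1 (39.1% beside 21.9% of all genes), and 5 rose and 3 fell in KO2 (34.8% beside 17.9%). Gss, glutathione synthetase, which completes the tripeptide after the ligase of Gclc and Gclm, was at 62.7 and 68.8 CPM in KO1, 69.9 and 72.0 CPM in KO2 and 95.6 and 107 CPM in WT. Every knockout library lay below WT. Gss fell in both clones, with a log2 fold change of -0.62 ± 0.10 in KO1 (adjusted p 2.0e-04) and -0.51 ± 0.10 in KO2 (adjusted p 0.00124). Gclc and Gclm passed no test in either clone.

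Other genes of the list differed between the clones. Gpx2, a glutathione peroxidase known as an NRF2 target, was at 15.1 and 16.7 CPM in KO1, 29.8 and 32.7 CPM in KO2 and 14.7 and 15.6 CPM in WT. It rose by 107% in KO2 (interval 69.9% to 152%, log2 fold change 1.05 ± 0.13, adjusted p 3.44e-05) and had a log2 fold change of 0.08 ± 0.14 in KO1 (adjusted p 0.746). The difference between KO2 and KO1 was 0.97 ± 0.13 (adjusted p 1.15e-04). Chac1, which degrades glutathione, was at 19.3 and 23.4 CPM in KO1, 51.4 and 51.4 CPM in KO2 and 31.9 and 40.3 CPM in WT. It fell by 0.76 ± 0.14 on the log2 scale in KO1 (adjusted p 7.4e-04). In KO2 its log2 fold change was 0.51 ± 0.13 (adjusted p 0.0105), a value not run under the alternatives, and KO2 was above KO1 by 1.27 ± 0.13 (adjusted p 8.02e-06).

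Of 17 glutathione transferases, enzymes that couple glutathione to electrophiles, 5 rose and 0 fell in KO1 (29.4%). Beside this, 21.9% of all genes were called in either direction and 12.4% higher. In KO2, 4 transferases rose and 2 fell (35.3% beside 17.9% of all genes in either direction). Gstm2 was at 20.7 and 17.7 CPM in KO1, 20.2 and 21.2 CPM in KO2 and 9.49 and 10.5 CPM in WT. Knockout and WT libraries did not overlap, and Gstm2 rose by a log2 fold change of 0.94 ± 0.15 in KO1 (adjusted p 3.1e-04) and 1.05 ± 0.15 in KO2 (adjusted p 1.28e-04). Gstm1 rose by 0.78 ± 0.11 in KO2 (adjusted p 6.32e-05), with 50.04 and 53.0 CPM in KO1, 72.4 and 75.1 CPM in KO2 and 39.7 and 46.3 CPM in WT. Gstm3 rose by 1.49 ± 0.23 in KO2 (adjusted p 2.3e-04). These mu-class genes are paralogs that lie side by side on chromosome 3. How alike their sequences are was not measured, and where they share sequence the counting could split reads among them.

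Among 16 thioredoxin and peroxiredoxin genes, 1 rose and 4 fell in each clone, 31.2% beside 21.9% of all genes in KO1 and 17.9% in KO2. Txnip, the thioredoxin-binding protein that inhibits thioredoxin, was at 142 and 143 CPM in KO1, 147 and 149 CPM in KO2 and 109 and 106 CPM in WT. It rose by a log2 fold change of 0.41 ± 0.08 in KO1 (adjusted p 0.00153) and 0.46 ± 0.08 in KO2 (adjusted p 7.0e-04), and the knockout libraries all lay above WT. Sesn2, a stress-induced sestrin, fell by 0.51 ± 0.09 on the log2 scale in KO1 (adjusted p 4.7e-04), and the peroxiredoxin gene Prdx2 fell there by 0.45 ± 0.08 (adjusted p 9.6e-04). Prdx6, another peroxiredoxin, fell by 0.42 ± 0.08 in KO2 (adjusted p 0.00127).

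Me1 and Blvrb rose, and several detoxifying enzymes fell. Me1, the NADP-dependent malic enzyme, was at 85.6 and 65.5 CPM in KO1, 74.1 and 72.0 CPM in KO2 and 52.2 and 51.8 CPM in WT, and rose in KO1 by 0.54 ± 0.12 (adjusted p 0.00296). Blvrb, biliverdin reductase B, was at 36.6 and 48.1 CPM in KO1, 49.6 and 50.1 CPM in KO2 and 31.6 and 30.1 CPM in WT, and rose in KO2 by 0.69 ± 0.13 (adjusted p 0.00106). Of 14 xenobiotic enzymes and export pumps, 4 fell and 0 rose in KO1 (28.6%). Beside this, 21.9% of all genes were called in either direction, with 1424 of 14946 lower. In KO2, 1 of the 14 rose and 4 fell (35.7% beside 17.9% of all genes in either direction). Ephx1, microsomal epoxide hydrolase, was at 33.9 and 31.2 CPM in KO1, 23.4 and 19.1 CPM in KO2 and 45.4 and 49.0 CPM in WT, and fell by 1.15 ± 0.13 in KO2 (adjusted p 6.33e-06). In KO1, Cbr3, a carbonyl reductase, fell by 0.62 ± 0.12 (adjusted p 9.6e-04) and Akr1b3, aldose reductase, by 0.41 ± 0.08 (adjusted p 0.00125).

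Nqo1 is also a known target of the Ah receptor, a ligand-activated transcription factor, and 4 of 8 genes of that list were tested, since Cyp1a1, Cyp1a2, Cyp1b1 and Ahrr did not pass the filter on low counts. Aldh3a1, an aldehyde dehydrogenase that both pathways are known to control, was counted 30 and 30 times in KO1, 12 and 13 times in KO2 and 118 and 95 times in WT. Its direction was opposite to that of Nqo1, with a log2 fold change of -1.78 ± 0.27 in KO1 (adjusted p 1.9e-04) and -2.97 ± 0.32 in KO2 (adjusted p 4.43e-06). Ahr itself was at 8.56 and 6.75 CPM in KO1, 8.70 and 9.02 CPM in KO2 and 4.32 and 3.54 CPM in WT. It rose by 1.17 ± 0.23 in KO2 (adjusted p 0.00164) and by 0.96 ± 0.23 in KO1 (adjusted p 0.00627), a call lost without the second WT library (0.0780).

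**Figure D3:**
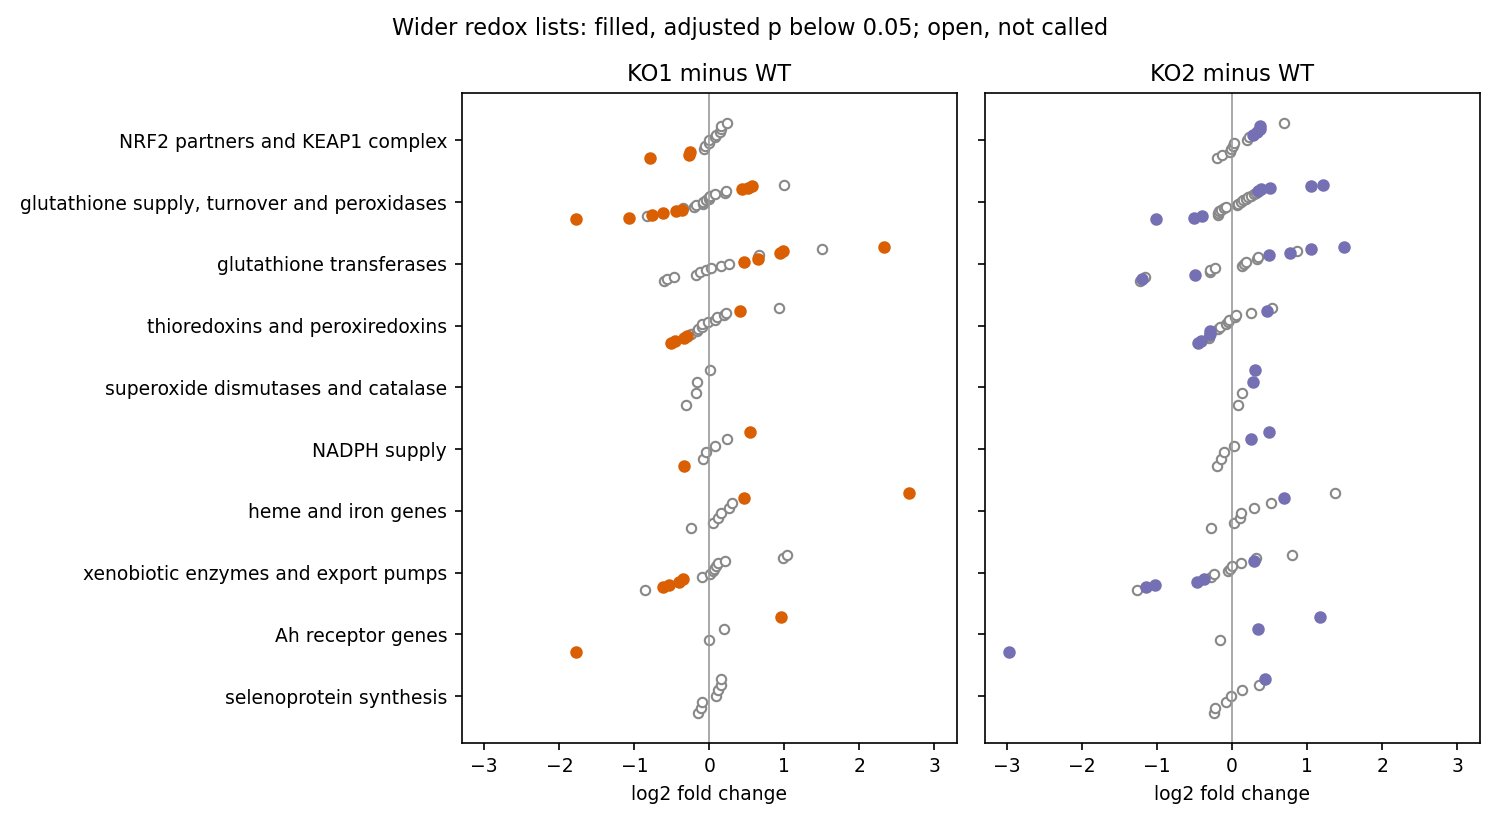
Log2 fold change of every tested gene of the lists by role, for KO1 minus WT on the left and KO2 minus WT on the right, filled where the adjusted p was below 0.05 and open where it was not. Among the 13 partners of NRF2 and KEAP1, 3 filled points lie below 0 in KO1 and 4 above 0 in KO2, of which that of Bach2 in KO1 held in all 11 alternatives, and Aldh3a1 is the filled point at -2.97 in KO2.

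Neighbours of Cbs and Glo1 on the chromosome fell in KO1 too, though Cbs fell further than the median of its neighbours. Cbs, cystathionine beta-synthase, which feeds cysteine synthesis from homocysteine, was at 26.1 and 29.8 CPM in KO1, 88.2 and 81.0 CPM in KO2 and 97.8 and 94.5 CPM in WT. Glo1, glyoxalase 1, a glutathione-dependent enzyme, was at 158 and 128 CPM in KO1, 276 and 266 CPM in KO2 and 302 and 300.4 CPM in WT. In both, KO1 stood far below the other groups, and the log2 fold change was -1.78 ± 0.10 for Cbs (adjusted p 6.03e-09) and -1.07 ± 0.09 for Glo1 (adjusted p 4.75e-07). Both lie on chromosome 17, and their 20 nearest tested genes, 10 on each side, were low in KO1 too. The median log2 fold change of the neighbours was -0.996 around Cbs, with 17 of 20 called lower, and -1.08 around Glo1, with 15 of 20 called lower, and some genes are neighbours of both. In KO2 the medians were 0.01 around Cbs and -0.05 around Glo1.

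Around the called genes among the 9 the neighbours had medians near 0. Around Nqo1 the median log2 fold change of 20 neighbours was -0.03 in KO1 and -0.13 in KO2, against 0.44 and 0.80 for Nqo1 itself. Around Txnrd1 it was -0.05 in KO1 and -0.03 in KO2. Around Srxn1 it was -0.16 in KO1 and -0.09 in KO2, below the values of Srxn1. The neighbours of Gss, on the same chromosome, had medians of -0.19 in KO1 and -0.05 in KO2, smaller than the fall of Gss.

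**Figure D4:**
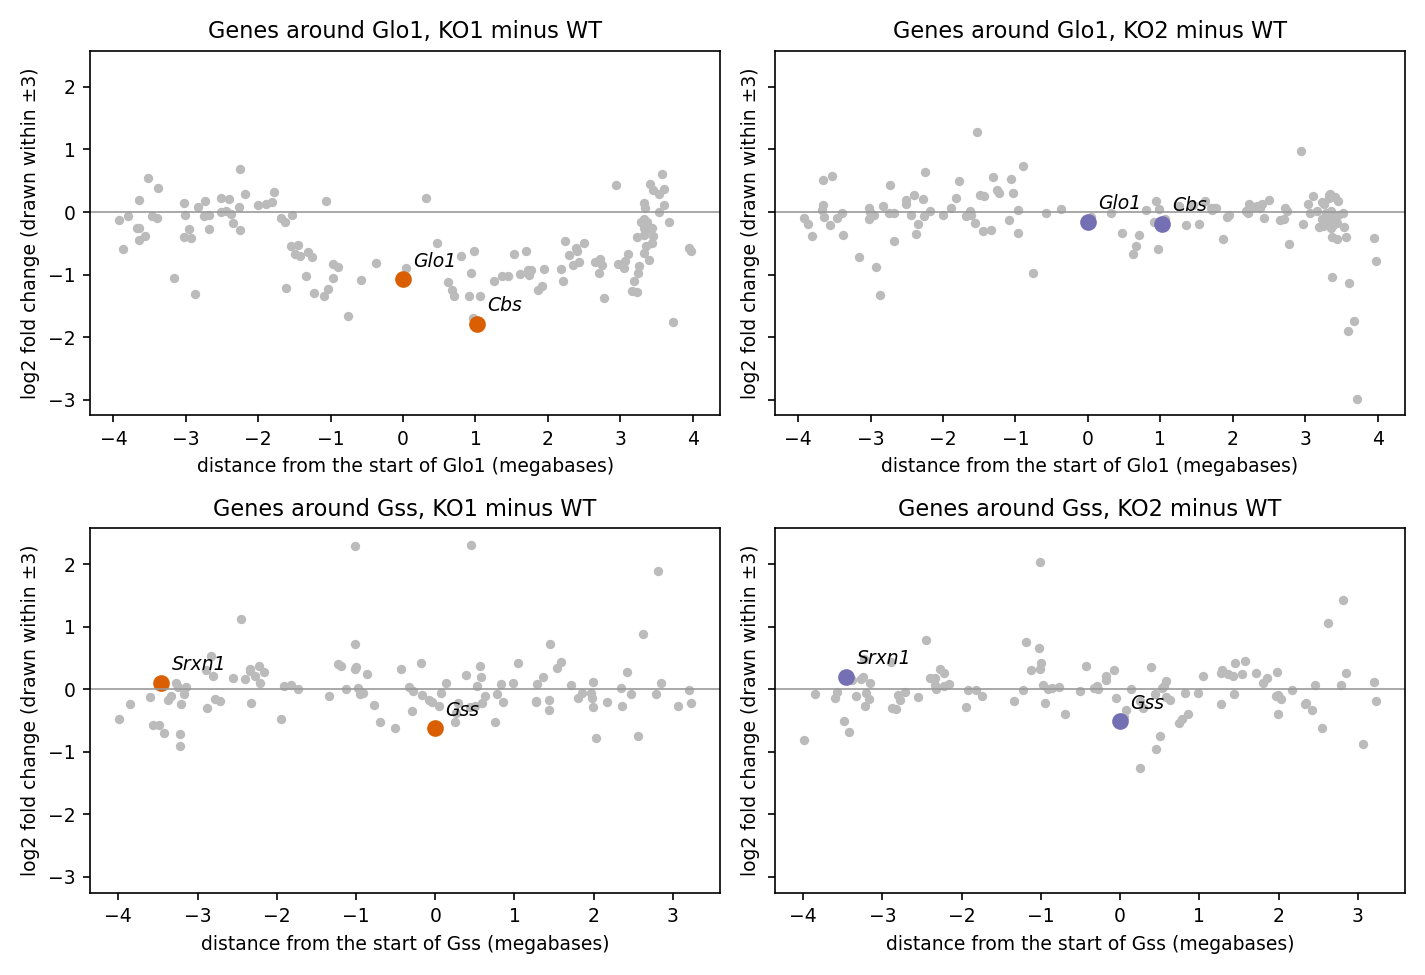
Log2 fold change of genes by distance in megabases from the start of Glo1 (top) and of Gss (bottom), for KO1 minus WT on the left and KO2 minus WT on the right, with each grey point a tested gene and the named genes in colour. In KO1 a stretch of genes around Glo1 and Cbs lies near -1, which is not seen in KO2. Srxn1 lies above 0 and Gss below 0, among genes on both sides of 0. The 20 nearest genes of each had a median below 0 in both clones (-0.16 and -0.09 for Srxn1, -0.19 and -0.05 for Gss, KO1 first).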

How the data were processed

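The authors deposited 1 table per library of raw read counts per gene. HISAT2 2.1.0, DESeq2 1.18.1, HTSeq 0.9.1 and the build mm10 are named, with no role, in the submitters' processing notes. Which annotation and strand setting were used is not given in the sources used here. Libraries were made from total RNA after removal of ribosomal RNA, per the labels' protocols. The 5 summary entries of each table stayed out of library sizes and tests, with 4.14% to 5.35% of reads without a feature and 6.96% to 9.10% ambiguous. The other 6 samples, labelled day0 and day7, were not analysed here.

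Of 52535 genes, 14946 passed edgeR's filterByExpr on the 3 groups. Tests used edgeR 4.0.16 in R 4.3.3 with TMM factors and the quasi-likelihood F test, two-sided, with Benjamini-Hochberg adjustment over all genes tested at 0.05. KO1, KO2 and the difference KO2 minus KO1 came from a fit of 3 groups. The comparison of knockout with WT coded both clones as 1 genotype, which counts 4 libraries of 2 clones as independent. CPM were scaled by TMM factors, and log2 CPM used a prior count of 2. Positions and exon lengths were taken from GENCODE M21 (GRCm38, which mm10 is built from). Neighbours were the 10 tested genes on each side with a mean CPM of 1 or more.

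The 9 genes, the lists by role, the markers and the tests were chosen with earlier results of these data known. The rule for named genes took the 9, Bcat1, up to 4 called genes per list and comparison with the smallest p, and for each called gene among the 9 the 3 with the nearest pattern. Alternatives were DESeq2 1.42.0, DESeq2 size factors, no filter, a replicate block, a fit of the 4 libraries compared, the mean of the clone contrasts, and leaving out each library. The mean of the clone contrasts came from the fit of 3 groups, so differences between clones do not enter its spread. Figures were drawn with matplotlib 3.10.9.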

Additional observations from a re-analysis of the deposited data

Results flagged for a closer look

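Among the 4 knockout libraries, a single library stood apart for Keap1 and for Hmox1. For Keap1 the gap between the lowest library, the first of KO1 at 33.9 CPM, and the next was 0.871 of the whole range. For Hmox1 the gap between the highest library, the second of KO2 at 88.02 CPM, and the next was 0.894 of the range. The 9 genes and Bcat1 were examined in this way. A chance rate of about 1 in 20 groups would hold for independent libraries from a single population. The knockout libraries came from different clones, KO1 and KO2, so that rate cannot be applied to them, and how often chance gives such a gap was not tested.

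The effects of the clones differed for some genes of the lists, by the edgeR test of KO2 minus KO1 on the log2 scale. Of 112 tested genes of the lists, 20 were higher and 8 lower in KO2 than in KO1. The rule for named genes, which limits the genes taken per list, took 23 of these calls, and only those are given here. Of the 9 genes, edgeR called 0, with 1 of 9 at an unadjusted p below 0.05, and DESeq2 called 0. Among the partners of NRF2 the differences were 0.554 for Sqstm1, 0.476 for Mafg, 0.814 for Bach2 and 0.390 for Nfe2l1. Among genes of glutathione supply they were 1.60 for Cbs, 0.920 for Glo1, 1.27 for Chac1 and 0.972 for Gpx2. Among transferases they were 0.621 for Gsto1, 0.517 for Gstm1, -2.61 for Gstt1 and -2.67 for Gstm5. Gstt1 and Gstm5 had few counts, and DESeq2 gave them no adjusted p. Among peroxiredoxins and sestrins they were 0.368 for Prdx2, -0.272 for Prdx1, 0.300 for Prdx3 and -0.506 for Sesn3. Sod2 at 0.479, Ccs at 0.446 and Cat at 0.280, all of them genes of superoxide or peroxide removal, were higher in KO2, as was the selenophosphate synthetase gene Sephs2 at 0.313. Akr1b8 at -1.10, Ephx1 at -0.620 and Aldh3a1 at -1.19 were lower in KO2. Of these 23 calls, 11 held in every alternative in which they were run. The calls of Prdx3, Ccs, Cat and Aldh3a1 were lost both with DESeq2 and in a fit of only the 4 libraries compared.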

How the results depend on the processing

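Of the 9 genes, 2 were called in KO1, and 1 with DESeq2 or in a fit of only the 4 libraries compared, with 0 to 2 when single libraries were left out. Nqo1 in KO2 was called in every alternative. As a single genotype 0 were called, with 1 by DESeq2, 1 with no filter beyond 1 count, 2 as the mean of the clone contrasts and 0 to 1 when single libraries were left out. Between KO2 and KO1, 0 were called, with 0 to 2 when single libraries were left out. Same-numbered libraries had deviations correlating at 0.125 between KO1 and KO2, 0.0513 between KO1 and WT and -0.0125 between KO2 and WT. Whether same-numbered libraries share a batch was not tested. With the replicate block 2 of 9 were called in KO1, 1 in KO2, 0 as a single genotype and 1 between the clones. Over all genes the block gave 4410, 3685, 646 and 3007 calls, beside 3280, 2674, 951 and 2141 without it, in the same order.

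Over all genes the genotype count of 951 became 1752 with no filter beyond 1 count and 3226 as the mean of the clone contrasts, and ran from 79 without the first and 99 without the second WT library to 948. In KO1 the 3280 calls ran from 1576 without the first and 1687 without the second WT library to 4310. In KO2 the 2674 calls became 4065 in a fit of only the 4 libraries compared and ran from 1165 without the first WT library to 4191 without the second KO1 library. Between the clones 2141 calls ran from 974 without the first KO2 library to 3155 without the second KO1 library. DESeq2 gave 1368, 2420, 1968 and 1495 calls for the genotype, KO1, KO2 and KO2 minus KO1.

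Signs turned only for log2 values that were not called in the main fit, the largest of them 0.16 for Keap1 between the clones. As a single genotype Bcat1 was -0.0011 with no filter beyond 1 count. Leaving out single libraries gave -0.035 to 0.028 for Bcat1 and -0.041 to 0.18 for Gclm as a single genotype. In KO1 it gave -0.19 to 0.27 for Keap1 and -0.15 to 0.074 for Gclm, and in KO2 -0.15 to 0.020 for Hmox1. Between the clones it gave -0.043 to 0.41 for Keap1, -0.040 to 0.061 for Gclc and -0.067 to 0.11 for Gsr. The causes were not tested. With 2 libraries per group, differences as small as those of Gclc or Gsr could not be separated from 0, and the lone library left in a group was assumed to vary like the others.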

Other observations

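Ephx1 and Prdx6 both lie on chromosome 1, and their neighbours were lower than WT in both clones. The 20 nearest tested genes of Ephx1 had a median log2 fold change of -0.34 in KO1, with 10 called lower, and of -0.34 in KO2, with 8 called lower. For Prdx6 the medians were -0.26 in KO1 and -0.24 in KO2, and 18 of 20 neighbours were below 0 in each clone. Ephx1 itself stood at -0.53 in KO1 and -1.15 in KO2, and Prdx6 at -0.30 in KO1 and -0.42 in KO2. The part of the chromosome stretch in these values was not tested.

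Of 4 tested superoxide dismutase and catalase genes, 2 rose in KO2 by edgeR, Sod2 and Cat, and neither call held in all 11 alternatives. For Cat, catalase, the log2 fold change was 0.28 ± 0.08 (adjusted p 0.0276), lost without the first (0.231) or second WT (0.0961) or the first (0.246) or second KO2 library (0.137). Sod2, the mitochondrial superoxide dismutase, was at 181 and 187 CPM in KO1, 252 and 260 CPM in KO2 and 207 and 209 CPM in WT. The log2 fold change of Sod2 in KO2 was 0.30 ± 0.08 (adjusted p 0.0121), a call lost without the first (0.116) or second WT (0.0870) or the first (0.105) or second KO2 library (0.154). The difference in Sod2 between KO2 and KO1 was 0.48 ± 0.08 (adjusted p 4.7e-04) and held in every alternative.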
